A study of Mus musculus with 6 samples.

Results

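The 30 genes described here make, take up, store and export cholesterol. They were taken by symbol from the table of 43629 genes, as the rows whose Ensembl ID carries one of 30 chosen names in the GENCODE M21 annotation, and all 30 names were found. They comprise 8 enzymes of the isoprenoid arm, 11 enzymes of the sterol arm, 5 regulators of the SREBP transcription factors, 4 genes of intracellular transport and esterification, and 2 efflux transporters. All 30 passed the filter on low counts in the table as a whole.

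Frozen bone marrow was thawed and sorted for Kit (c-kit+ cells), and its RNA gave 6 libraries, all from C57BL/6 mice at the end point of leukaemia. Libraries from Gata2+/f mice (replicates 7, 9 and 11) were set against libraries from Gata2+/+ mice (replicates 3, 5 and 6). Mice of both groups carried Cbfb-MYH11, the fusion gene of human inv(16) leukaemia, as a knockin. The labels give neither the ages of the mice nor what drove recombination of the allele written f, and nothing in the gene-level counts shows which exons it alters. The comparison asks how leukaemia that arose with less Gata2 differed from leukaemia with Gata2 intact.

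Cholesterol synthesis starts from acetyl-CoA. The isoprenoid (mevalonate) arm builds farnesyl diphosphate, from which cells also make dolichol, ubiquinone and the lipid anchors of small GTPases. The sterol arm joins farnesyl units into squalene, closes the ring to lanosterol and trims lanosterol to cholesterol. When membrane sterol is low, SCAP carries SREBP proteins out of the endoplasmic reticulum and they switch on the enzyme genes, whereas INSIG proteins hold them back when sterol is plentiful. Surplus cholesterol is esterified or leaves the cell through ABCA1 and ABCG1, whose genes are activated by the oxysterol receptors called LXR.

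The bases upstream of 6 members are shown for the motifs they hold. Those with higher levels are Mvd and Hsd17b7, those with lower levels Lss, Ggps1 and Abca1, and Hmgcs1 overlapped between the groups. Each line holds 150 bases, 5′ to 3′ on the gene's strand, from RefSeq for GRCm38.p6. It ends just before the gene's start in RefSeq or in GENCODE M21, whichever lies farther upstream. The line of Hmgcs1 therefore ends before its RefSeq start, 28 bases ahead of the GENCODE start, whereas those of Hsd17b7 and Lss end before the GENCODE start, 36 and 17 bases ahead of the RefSeq start. Capitals mark the CCAAT box (CCAAT or its reverse ATTGG, the binding site of NF-Y) and the classical sterol element (TCACNCCAC or its reverse GTGGNGTGA, a binding site of SREBP). No overlap between the 2 motifs occurred in these lines.
Mvd: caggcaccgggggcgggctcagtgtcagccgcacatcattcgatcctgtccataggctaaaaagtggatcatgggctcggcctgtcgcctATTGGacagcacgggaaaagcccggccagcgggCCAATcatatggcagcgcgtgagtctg
Hsd17b7: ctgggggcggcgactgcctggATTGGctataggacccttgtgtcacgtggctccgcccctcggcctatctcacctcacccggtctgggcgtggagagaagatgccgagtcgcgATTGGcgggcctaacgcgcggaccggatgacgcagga
Hmgcs1: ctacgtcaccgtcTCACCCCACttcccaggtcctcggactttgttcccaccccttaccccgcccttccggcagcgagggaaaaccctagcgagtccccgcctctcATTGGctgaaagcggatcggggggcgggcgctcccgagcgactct
Lss: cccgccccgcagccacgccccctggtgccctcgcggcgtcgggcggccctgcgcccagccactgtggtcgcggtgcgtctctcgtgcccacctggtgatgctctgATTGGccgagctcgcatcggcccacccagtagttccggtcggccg
Ggps1: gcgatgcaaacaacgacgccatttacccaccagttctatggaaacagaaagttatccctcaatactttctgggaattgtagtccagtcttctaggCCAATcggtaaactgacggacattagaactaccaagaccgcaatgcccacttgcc
Abca1: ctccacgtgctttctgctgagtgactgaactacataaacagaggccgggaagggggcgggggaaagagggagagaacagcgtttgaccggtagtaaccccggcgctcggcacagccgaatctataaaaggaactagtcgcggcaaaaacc

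The stretches are chr8:122443423-122443572 on the minus strand for Mvd, chr1:169969242-169969391 on the minus strand for Hsd17b7, and chr13:119690201-119690350 on the plus strand for Hmgcs1. Those of the lower genes are chr10:76531438-76531587 on the plus strand for Lss, chr13:14063489-14063638 on the minus strand for Ggps1, and chr4:53159896-53160045 on the minus strand for Abca1. CCAAT boxes stand 2 times in the lines of Mvd and Hsd17b7, 1 time in those of Hmgcs1, Lss and Ggps1, and not in that of Abca1. The sterol element stands in the Hmgcs1 line. In the wider windows of 250 bases before to 50 after the start, which matched 24 of the 30 members, 20 members (83.3%) held a CCAAT box on either strand, against 37.9% of 27025 genes with a window and 38.8% of the 10735 of these that were tested here. The GC box (GGGCGG or CCGCCC, bound by SP1) was also in 20 of the 24 windows, against 62.2% of the tested genes. The palindromic E-box CACGTG was in 5 windows (Hsd17b7, Sc5d, Insig1, Scap and Abca1), against 10.1% of tested genes. The sterol element was in 1 window, against 1.03% of tested genes, and the motif AGATAA (reverse TTATCT), which GATA factors bind, in 2 windows, those of Insig2 and Npc2, against 6.88%. Among the higher genes that DESeq2 called, the window of Mvd, Idi1 and Hsd17b7 held a CCAAT box, that of Acat2 did not, and Fdps had no matched window. Both lower enzymes, Lss and Ggps1, held one.

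Total expected counts ran from 53789568 to 67854631 per library. Gata2 itself had 498, 273 and 264 CPM (read counts relative to library size, scaled by TMM) in Gata2+/f replicates 7, 9 and 11, against 886, 887 and 737 CPM in Gata2+/+ replicates 3, 5 and 6 (log2 fold change −1.28, SE 0.32; edgeR adjusted p = 0.109). Kit, the receptor used for the sort, was detected in every library, at 175 to 328 CPM in Gata2+/f and 826 to 1466 CPM in Gata2+/+. Of a list of 12 mast cell genes, which includes Gata2 and Kit, all 11 tested had negative log2 fold changes and 9 had an unadjusted p below 0.05 (11.5% of all genes were lower at that p, 11.1% higher). Their summed levels were 1608 to 5309 CPM in Gata2+/f and 12777 to 15479 CPM in Gata2+/+. Positive log2 fold changes were found for all 12 late neutrophil genes (12 with such a p; 4093 to 8234 CPM summed in Gata2+/f, 159.8 to 468 CPM in Gata2+/+) and for all 12 monocyte and macrophage genes (8 with such a p; 1616 to 4678 CPM in Gata2+/f, 488 to 1541 CPM in Gata2+/+). The same was true of all 20 proliferation genes (16 with such a p; 3353 to 5061 CPM in Gata2+/f, 1412 to 2593 CPM in Gata2+/+). No marker gene passed edgeR's test after adjustment. Summed erythroid markers were at 1765 to 3302 CPM in Gata2+/f and 3454 to 3875 CPM in Gata2+/+, and lymphoid markers stayed between 13.6 and 126 CPM in all libraries. Of these marker genes, Tpsab1 (mast cell) was at 0 in all Gata2+/f libraries and at 0.080 to 0.26 CPM in Gata2+/+. Ncr1 (natural killer cell) was at 0 in all Gata2+/+ libraries and at 0 to 0.27 CPM in Gata2+/f. Both genes fell below the filter on low counts and were not tested. In bulk RNA, fewer cells of a type and less RNA per cell cannot be told apart, and the part of these markers in the results below was not tested.

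The enzymes and the efflux genes lay on opposite sides. The fitted log2 fold change, Gata2+/f over Gata2+/+, was positive for 17 of the 19 enzymes (median 0.50), and both efflux transporters had negative values. Abca1 was the member with the largest difference, at 0.117 times its Gata2+/+ level, followed among the higher genes by Hsd17b7, Idi1, Mvd and Fdps, which were 2.59 to 3.22 times as high. Regulators and transport genes lay between, with medians of 0.013 and −0.14. Over all 30 members the median was 0.21 and 20 were positive, beside a median of 0.019 and 51.1% positive among the 15432 genes tested.

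With edgeR's quasi-likelihood test no member reached a Benjamini-Hochberg adjusted p below 0.05, and neither did any other gene (0% of those tested). At an unadjusted p under 0.05 there were 5 higher members (11.1% of all genes) and 4 lower members (11.5% of all genes), that is 9 of 30, beside 22.6% of all genes in either direction. The smallest adjusted p were those of Abca1 (0.0955) and Fdps (0.0966). DESeq2's Wald test called 7 members at adjusted p under 0.05, beside 12.7% of the genes it gave an adjusted p. Those were Acat2, Mvd, Idi1, Fdps and Hsd17b7 among the higher genes, and Lss and Abca1 among the lower. The groups did not overlap for 14 members (29.7% of all genes), of which 10 were higher in Gata2+/f, all of them enzymes (13.1% of all genes), and 4 were lower (16.6% of all genes), namely Ggps1, Lss, Srebf2 and Abca1. With 3 libraries per group, an exact permutation test of a single gene cannot go below p = 0.1.

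**Figure D1:**
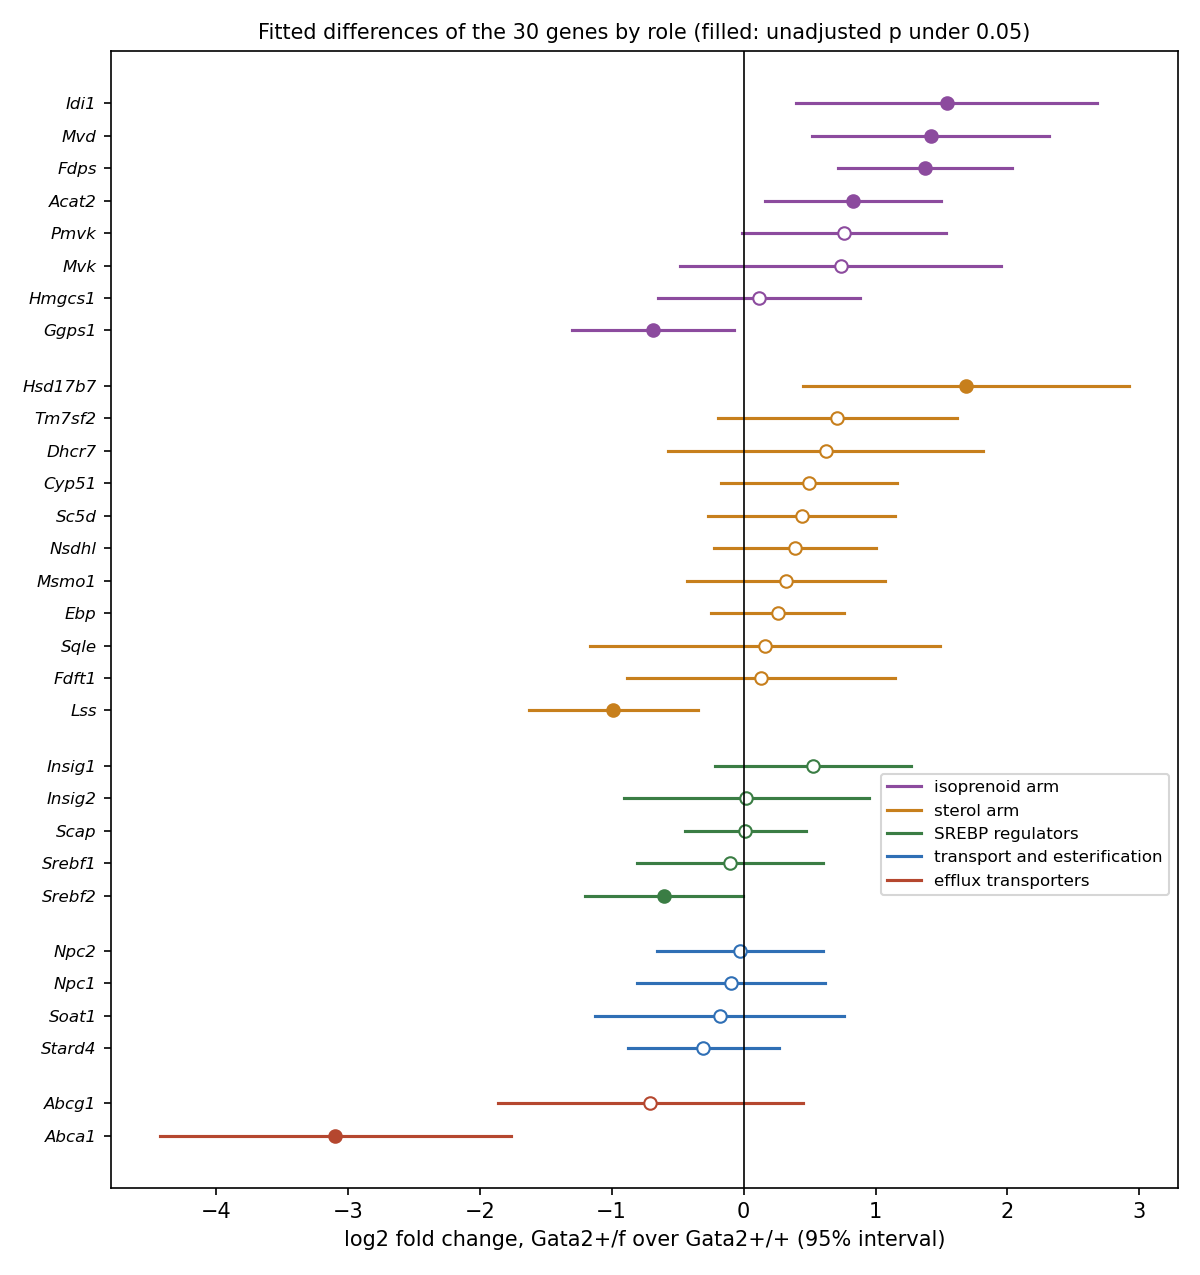
Log2 fold change of each of the 30 genes, Gata2+/f over Gata2+/+, on the horizontal axis, with its 95% interval from edgeR's model. Genes run down the page by role; filled points had an unadjusted p under 0.05. The 4 highest filled isoprenoid and sterol genes lie between 1.38 and 1.68, while Abca1 lies at −3.09.

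The isoprenoid arm held 4 of the 5 higher members with an unadjusted p below 0.05. Of its 8 genes 7 had positive values (median 0.80), and 1 lower gene had such a p. Fdps, on chromosome 3 (89093588 to 89101959, minus strand), encodes farnesyl diphosphate synthase, the branch point between sterols and the other isoprenoids. It had 40.9, 74.7 and 50.8 CPM in Gata2+/f replicates 7, 9 and 11, against 18.9, 22.4 and 22.9 CPM in Gata2+/+ replicates 3, 5 and 6. Every Gata2+/f library was above every Gata2+/+ library, and replicate 9 was the highest. Fdps shares exon sequence with Gm43738 on the same strand. Fitted on the log2 scale, Gata2+/f exceeded Gata2+/+ by 1.38 (SE 0.28, 95% interval 0.72 to 2.04; edgeR adjusted p = 0.0966, DESeq2 adjusted p = 0.000906).

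Mvd, which encodes the decarboxylase that makes isopentenyl diphosphate (chromosome 8, 122433601 to 122443422, minus strand), had 7.30, 12.2 and 9.98 CPM in Gata2+/f, against 3.18, 4.56 and 3.27 CPM in Gata2+/+. The groups did not overlap, and the fitted log2 fold change was 1.42 (SE 0.39; edgeR adjusted p = 0.126, DESeq2 adjusted p = 0.00158). Over all genes of chromosome 8 the median stood 0.42 (log2) above their usual level in Gata2+/f replicate 7, which had the lowest Mvd of its group. Idi1, the isomerase that supplies the second isoprene building block, had 33.3, 101 and 31.2 CPM in Gata2+/f, against 18.2, 15.2 and 23.5 CPM in Gata2+/+. The groups did not overlap, but 1 library carried much of the size: the log2 fold change of 1.54 (SE 0.49; edgeR adjusted p = 0.150) became 0.82 without Gata2+/f replicate 9.

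Acat2, which encodes the cytosolic thiolase that joins acetyl-CoA units at the entry of the pathway, was more even. It had 25.1, 27.1 and 23.2 CPM in Gata2+/f, against 11.2, 13.0 and 18.3 CPM in Gata2+/+ (log2 fold change 0.83, SE 0.29; edgeR adjusted p = 0.166, DESeq2 adjusted p = 0.0430). Its close relative Acat3 lies beside it on chromosome 17, so reads shared by both may have been divided by the counting. Pmvk (phosphomevalonate kinase) had 18.2, 32.4 and 17.3 CPM in Gata2+/f, against 11.7, 14.3 and 14.0 CPM in Gata2+/+, with groups apart and a log2 fold change of 0.76 (SE 0.33). Mvk, the kinase one step before it, overlapped between the groups: 3.48, 13.7 and 9.86 CPM in Gata2+/f, and 5.92, 5.74 and 4.56 CPM in Gata2+/+. Hmgcs1, the synthase that makes HMG-CoA and a textbook target of SREBP2, had 25.1, 20.5 and 24.9 CPM in Gata2+/f, against 31.4, 18.5 and 15.1 CPM in Gata2+/+. Its log2 fold change was 0.12, with a 95% interval of −0.65 to 0.88.

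Ggps1 went the other way from the rest of the arm. It encodes geranylgeranyl diphosphate synthase, which extends the product of Fdps for protein prenylation. It had 26.2, 16.7 and 21.8 CPM in Gata2+/f, against 35.8, 29.6 and 38.9 CPM in Gata2+/+, and all Gata2+/f libraries lay below all Gata2+/+ libraries. The log2 fold change was −0.69 (SE 0.27; edgeR adjusted p = 0.193). Its exons overlap those of Arid4b on the opposite strand, and the strand setting of the counting is not given in the sources used here. Within each library, the log2 ratio of Fdps to Ggps1 (TPM, per exon length) was 0.80, 2.32 and 1.39 in Gata2+/f replicates 7, 9 and 11, and −0.76, −0.24 and −0.60 in Gata2+/+ replicates 3, 5 and 6. Fdps therefore exceeded Ggps1 in each Gata2+/f library and was below it in each Gata2+/+ library.

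**Figure D2:**
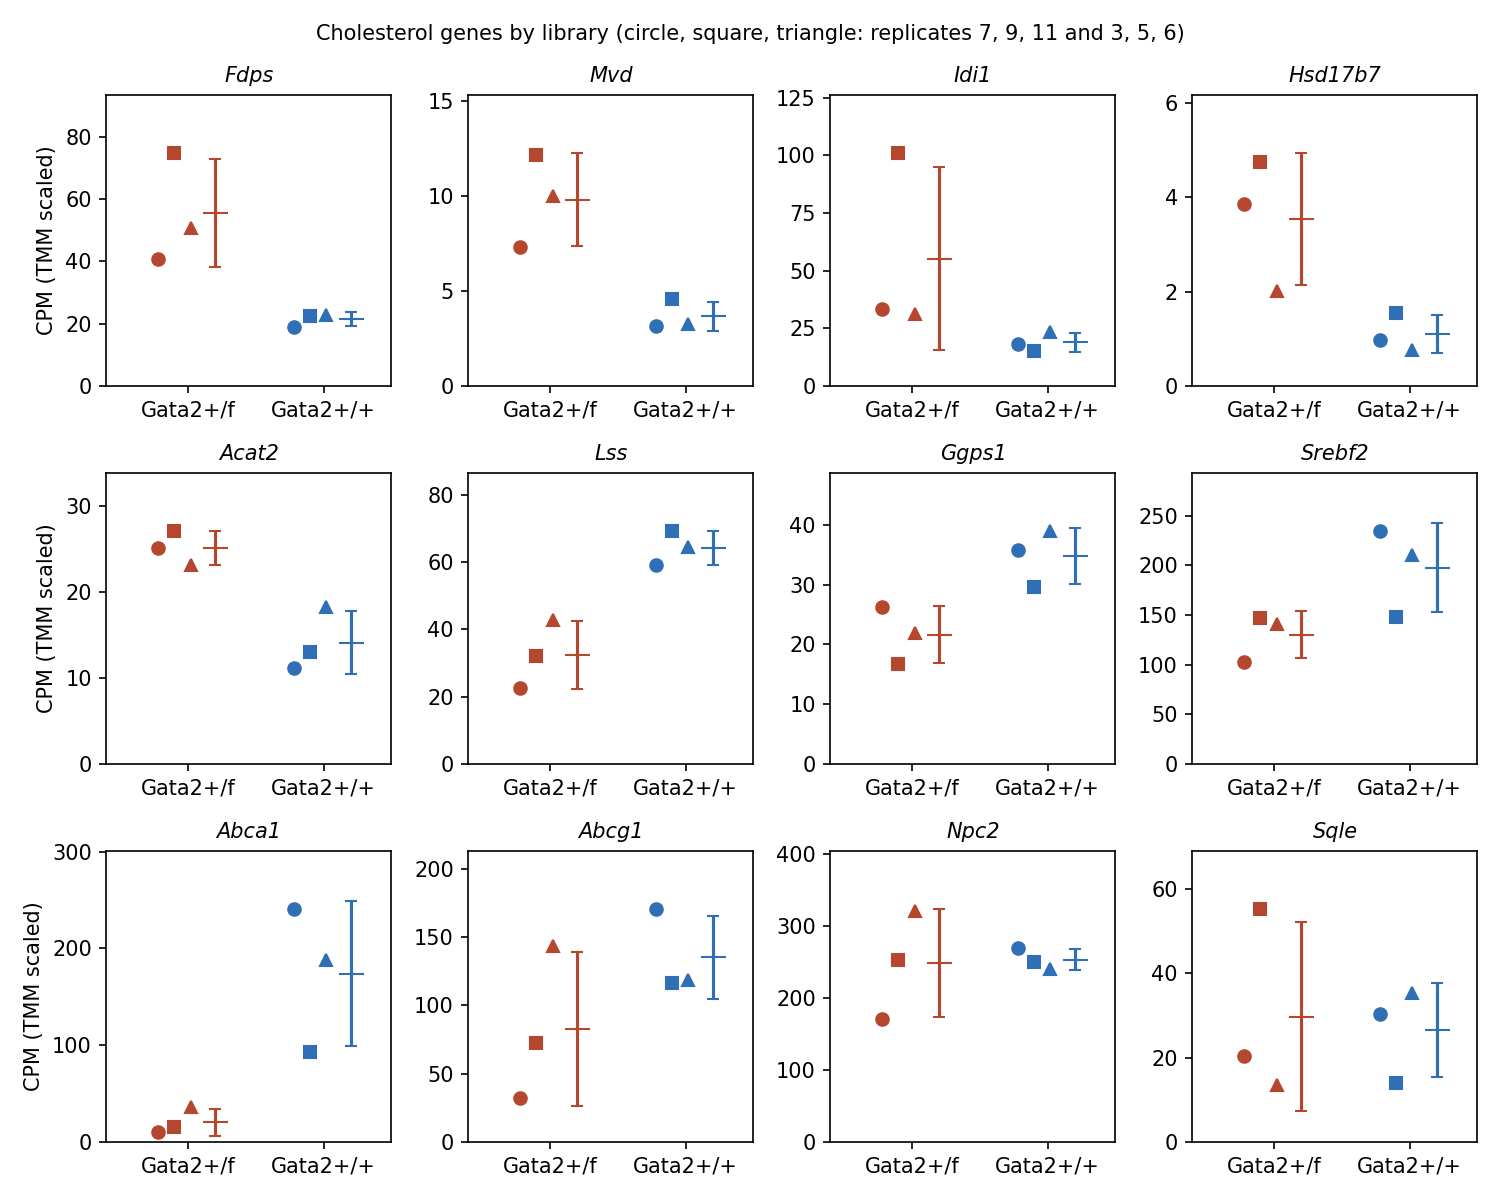
CPM (TMM scaled, linear axes from 0) of 12 genes in each library, Gata2+/f left and Gata2+/+ right; marks are single libraries, and bars show mean ± SD (n = 3). Fdps, Mvd, Idi1, Hsd17b7 and Acat2 lie higher in each Gata2+/f library, Lss, Ggps1, Srebf2 and Abca1 lie lower, and Abcg1, Npc2 and Sqle overlap.

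Of the 11 sterol arm enzymes 10 had positive log2 fold changes (median 0.39; 51.1% of all genes were positive). The groups lay apart with Gata2+/f higher for 5 of the 11, beside 13.1% of all genes, and the sterol and isoprenoid arms were not tested against each other. Hsd17b7, which encodes a sterol ketone reductase that works late in the removal of methyl groups, was the 1 higher sterol enzyme at an unadjusted p under 0.05. It was also the least abundant member: 3.85, 4.75 and 2.003 CPM in Gata2+/f, against 0.980, 1.55 and 0.763 CPM in Gata2+/+. The log2 fold change was 1.68 (SE 0.53; edgeR adjusted p = 0.149, DESeq2 adjusted p = 0.0121).

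Cyp51 (lanosterol demethylase) had 19.9, 19.8 and 23.2 CPM in Gata2+/f, against 17.4, 11.01 and 16.2 CPM in Gata2+/+ (log2 fold change 0.50, SE 0.29), and overlaps Akap9 on the opposite strand. Tm7sf2, a sterol reductase, had 5.31, 5.18 and 5.56 CPM in Gata2+/f, against 4.04, 3.34 and 2.43 CPM in Gata2+/+ (0.71, SE 0.39); it shares exon sequence with Vps51 on the same strand. The values of both genes were close to one another within Gata2+/f and more scattered within Gata2+/+. Nsdhl, a sterol dehydrogenase gene on chromosome X, had 16.3, 20.4 and 16.3 CPM in Gata2+/f, against 13.1, 13.7 and 13.5 CPM in Gata2+/+ (0.39, SE 0.26). Sc5d, a sterol desaturase, had 17.2, 16.0 and 15.2 CPM in Gata2+/f, against 13.1, 8.63 and 13.9 CPM in Gata2+/+ (0.44, SE 0.31). In both of them the groups lay apart by less than the range within one group, and edgeR's adjusted p was 0.396 for Nsdhl and 0.410 for Sc5d.

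Lss was the exception, as Ggps1 was in the arm before it. It encodes lanosterol synthase, which closes the sterol ring (chromosome 10, 76531588 to 76557138, plus strand), and overlaps 4930483K19Rik on the opposite strand. It had 22.5, 32.0 and 42.7 CPM in Gata2+/f, against 59.2, 69.2 and 64.5 CPM in Gata2+/+. The groups did not overlap, and the log2 fold change was −0.99 (SE 0.28; edgeR adjusted p = 0.128, DESeq2 adjusted p = 0.0426). Per exon length, the log2 ratio of Fdps to Lss was 2.22, 2.58 and 1.61 in Gata2+/f, and −0.29, −0.27 and −0.13 in Gata2+/+, so both genes stood near equal levels in each Gata2+/+ library and apart in each Gata2+/f library.

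The remaining sterol enzymes overlapped between the groups. Sqle, the epoxidase often described as a second rate-limiting step, had 20.4, 55.2 and 13.4 CPM in Gata2+/f, against 30.3, 13.9 and 35.3 CPM in Gata2+/+. Its direction depended on the library set: the log2 fold change of 0.16 became −0.59 without Gata2+/f replicate 9 and −0.15 without Gata2+/+ replicate 5. Chromosome 15, which carries Sqle, had genes that on the median stood 0.35 and 0.36 (log2) above their usual level in Gata2+/+ replicates 3 and 6, and at −0.13 in replicate 5, the order seen in Sqle itself. In Gata2+/f replicates 7, 9 and 11 the chromosome stood at −0.023, −0.12 and −0.23, an order that Sqle, highest in replicate 9, did not follow. Dhcr7 (the last reductase of one branch) had 17.5, 80.8 and 31.0 CPM in Gata2+/f and 26.0, 29.4 and 28.5 CPM in Gata2+/+, and its log2 fold change of 0.62 became −0.15 without Gata2+/f replicate 9. Fdft1 (squalene synthase) had 13.2, 42.5 and 33.3 CPM in Gata2+/f and 23.5, 22.6 and 35.3 CPM in Gata2+/+, with 0.13 becoming −0.17 without replicate 9; its exons overlap those of Ctsb, an abundant lysosomal protease gene on the opposite strand. Msmo1 (a sterol methyl oxidase) and Ebp (a sterol isomerase) differed by 0.32 (SE 0.32) and by 0.26 (SE 0.22) on the log2 scale.

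Among the Gata2+/f libraries the enzymes were not uniform. Replicate 9 had the highest level of all libraries for 12 of the 19 enzymes, whereas replicates 7 and 11 each had the highest for 2. With every gene centred on its own mean, the median of the 19 enzymes was 0.17, 0.54 and 0.17 (log2) in Gata2+/f replicates 7, 9 and 11, against −0.13, −0.27 and −0.27 in Gata2+/+ replicates 3, 5 and 6. Without replicate 9, 14 of 19 enzymes kept a positive value and the median was 0.46. The proliferation list was highest elsewhere, in replicate 7 (5061 CPM summed, against 3453 CPM in replicate 9 and 3353 CPM in replicate 11). Between the groups the proliferation genes and most enzymes had the same sign, and the part of proliferation in the enzyme values was not tested.

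**Figure D3:**
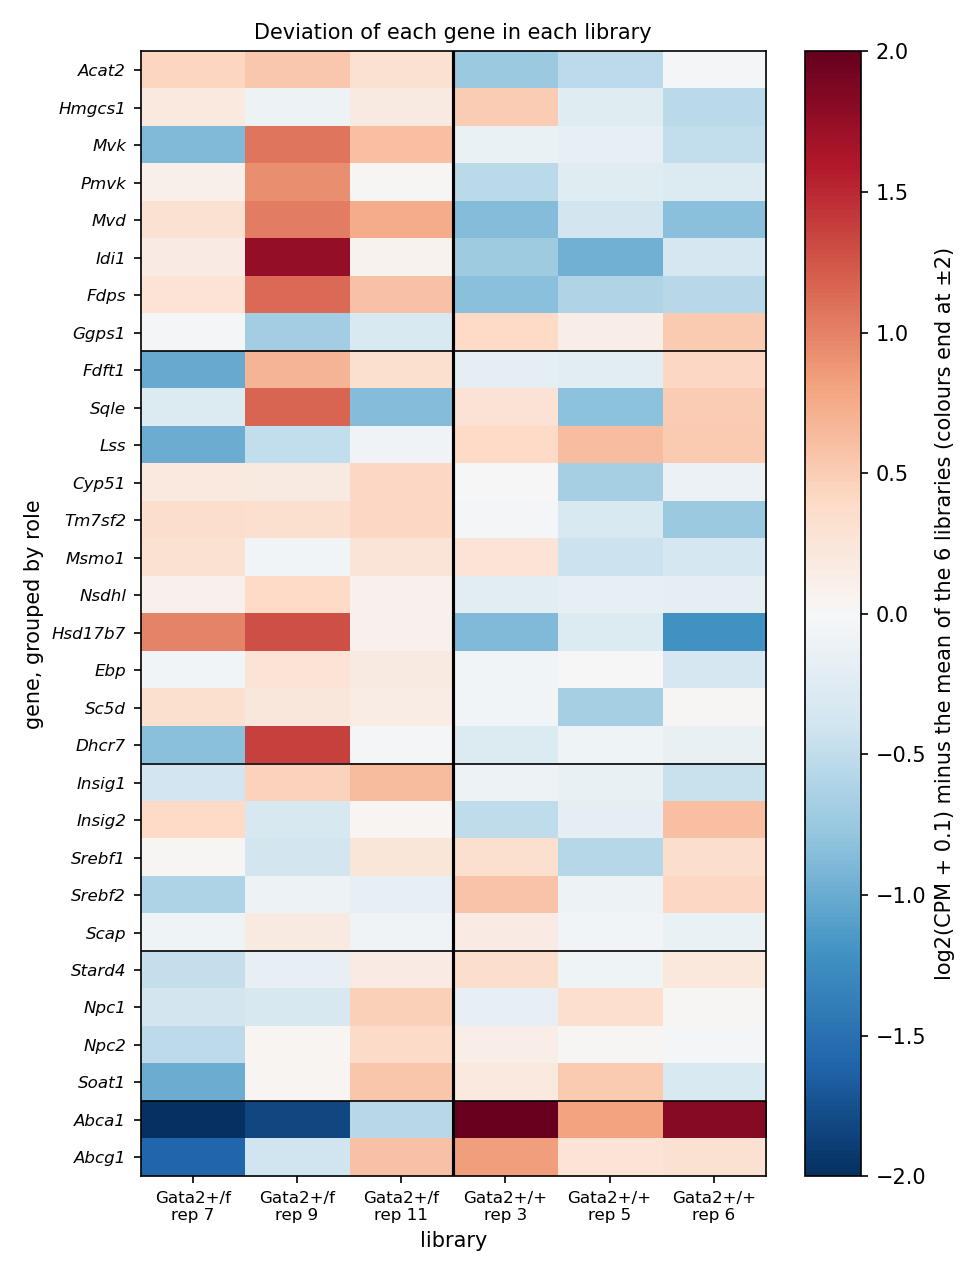
Each row is 1 of the 30 genes, grouped by role, and each column is 1 library, with Gata2+/f on the left. Colour gives log2(CPM + 0.1) after subtracting the gene's own mean. The Abca1 row is blue across Gata2+/f and red across Gata2+/+, and the Idi1, Dhcr7 and Sqle rows are reddest in Gata2+/f replicate 9.

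The regulators were less uniform in direction than the enzymes. Srebf2, which encodes the SREBP that drives sterol synthesis, had 103, 147 and 141 CPM in Gata2+/f, against 235, 148 and 211 CPM in Gata2+/+. The groups lay apart only narrowly, since Gata2+/f replicate 9 (146.8 CPM) and Gata2+/+ replicate 5 (148.1 CPM) were nearly equal. The log2 fold change was −0.60 (SE 0.26; edgeR adjusted p = 0.220). Srebf2 also lies on chromosome 15, and its 2 high Gata2+/+ libraries, replicates 3 and 6, are those in which that chromosome's genes stood above their usual level, while Gata2+/+ replicate 5 had no such shift. The part of this shift in the values of Srebf2 and Sqle was not tested.

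Srebf1, whose products mainly drive fatty acid synthesis, had 144, 109.7 and 169 CPM in Gata2+/f, against 177, 96.2 and 181 CPM in Gata2+/+ (log2 fold change −0.10, 95% interval −0.81 to 0.61, and 0.0030 with upper quartile factors); it overlaps Rai1 on the opposite strand. Scap, the escort of the SREBP proteins, had 87.2, 104 and 87.4 CPM in Gata2+/f and 103, 89.0 and 84.2 CPM in Gata2+/+. Its interval of −0.45 to 0.47 was the narrowest of the members. Insig1, a retention factor that is itself an SREBP target, had 17.4, 31.1 and 35.2 CPM in Gata2+/f, against 21.03, 20.3 and 16.6 CPM in Gata2+/+. Replicates 9 and 11 were above all Gata2+/+ libraries and replicate 7 was not, and the log2 fold change was 0.53 (SE 0.32; edgeR adjusted p = 0.353). Insig2, its paralog, had 15.1, 9.14 and 11.8 CPM in Gata2+/f and 8.06, 10.01 and 17.4 CPM in Gata2+/+ (0.022, 95% interval −0.90 to 0.95).

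Abca1 was far lower in Gata2+/f. It encodes the transporter that loads cholesterol and phospholipid onto apolipoprotein A-I (chromosome 4, 53030787 to 53159895, minus strand). It had 9.86, 15.0 and 36.2 CPM in Gata2+/f replicates 7, 9 and 11, against 240.5, 92.6 and 188 CPM in Gata2+/+ replicates 3, 5 and 6. Even the highest Gata2+/f library was below the lowest Gata2+/+ library. Fitted on the log2 scale, the difference came to −3.09 (SE 0.57, 95% interval −4.42 to −1.76; edgeR adjusted p = 0.0955, DESeq2 adjusted p = 2.81e-05). Leaving out 1 library gave values from −3.76 (without Gata2+/f replicate 11) to −2.71 (without Gata2+/f replicate 7).

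Abcg1, the partner transporter that passes cholesterol on to larger lipoproteins, was less separated, with 31.8, 72.3 and 144 CPM in Gata2+/f and 170.3, 116 and 118 CPM in Gata2+/+. Gata2+/f replicate 11 lay within the Gata2+/+ range, and the log2 fold change of −0.71 (SE 0.50; edgeR adjusted p = 0.415) became −1.33 without that library and −0.27 without Gata2+/f replicate 7. The log2 ratio of Abca1 to Abcg1 (TPM) was −2.20, −2.78 and −2.50 in Gata2+/f, against −0.0079, −0.83 and 0.16 in Gata2+/+. Abca1 was thus lower relative to Abcg1 in each Gata2+/f library. Both efflux genes, like the transport genes that follow, were highest within Gata2+/f in replicate 11. The summed monocyte and macrophage (4678 CPM), mast cell (5309 CPM), late neutrophil (8234 CPM) and erythroid markers (3302 CPM) were highest there too. Within Gata2+/f, summed lymphoid markers were highest in replicate 9 (126 CPM, of which Nkg7 alone had 105 CPM). Summed proliferation genes were highest in replicate 7 (5061 CPM). With each gene centred on its own mean, the lymphoid median was 0.31, 0.14 and 1.33 (log2) in replicates 7, 9 and 11. It was thus highest in replicate 11, and the erythroid median was highest in replicate 7 (0.46, against 0.36 in replicate 11). Between the groups, Abca1 was lower in Gata2+/f while the monocyte and macrophage markers were higher and the mast cell markers lower. The part of any of these marker lists in the efflux values was not tested.

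The 4 transport and esterification genes overlapped between the groups, all with slightly negative log2 fold changes. Of these, Npc2 turned to 0.080 with upper quartile factors, and without Gata2+/f replicate 7 Npc2, Npc1 and Soat1 turned to 0.23, 0.097 and 0.18. Npc2, a soluble protein that lifts cholesterol out of lysosomes, had 171, 253 and 320.3 CPM in Gata2+/f, against 269, 249 and 239.9 CPM in Gata2+/+ (−0.028, 95% interval −0.66 to 0.60). Its membrane partner Npc1 had 27.7, 28.4 and 49.7 CPM in Gata2+/f and 31.7, 45.1 and 36.1 CPM in Gata2+/+ (−0.095); it overlaps Rmc1 on the opposite strand. The means of both genes were near equal and the scatter was wider in Gata2+/f. Soat1, which esterifies cholesterol for storage, had 28.6, 58.5 and 83.8 CPM in Gata2+/f and 65.1, 82.5 and 46.3 CPM in Gata2+/+ (−0.18, SE 0.41). Stard4, a sterol carrier of the cytosol, had 37.1, 46.0 and 57.3 CPM in Gata2+/f and 65.5, 48.5 and 59.4 CPM in Gata2+/+ (−0.30, SE 0.25). Npc1 and Stard4 lie on chromosome 18, whose genes on the median stood at −0.35 (log2) from their usual level in Gata2+/f replicate 9. The part of this shift in the values of both genes was not tested.

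Compared per exon length (TPM), Npc2 was the most abundant member in both groups, at 129 ± 35.6 TPM in Gata2+/f and 123 ± 8.53 TPM in Gata2+/+ (SD, n = 3 here and below). Next in Gata2+/f came Srebf1 (70.9 ± 14.2 TPM), Ebp (63.3 ± 6.46 TPM) and Srebf2 (51.3 ± 8.39 TPM), whose ranges overlapped from one to the next. Hsd17b7 was the lowest in both, at 1.97 ± 0.800 TPM in Gata2+/f and 0.579 ± 0.257 TPM in Gata2+/+, below Tm7sf2 at 3.45 ± 0.09999 TPM in Gata2+/f and 1.95 ± 0.367 TPM in Gata2+/+. The order of the others shifted. Abca1 ranked 28 of 30 in Gata2+/f (5.51 ± 3.64 TPM) and 6 in Gata2+/+ (43.3 ± 15.3 TPM). Fdps ranked 7 in Gata2+/f (37.4 ± 11.5 TPM) and 17 in Gata2+/+ (13.6 ± 2.75 TPM), Idi1 ranked 5 in Gata2+/f and 16 in Gata2+/+, and Lss ranked 26 in Gata2+/f (8.48 ± 2.42 TPM) and 14 in Gata2+/+ (15.9 ± 2.91 TPM). Most neighbours in the Gata2+/f order had overlapping ranges; Npc2 above Srebf1 and Tm7sf2 above Hsd17b7 did not.

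**Figure D4:**
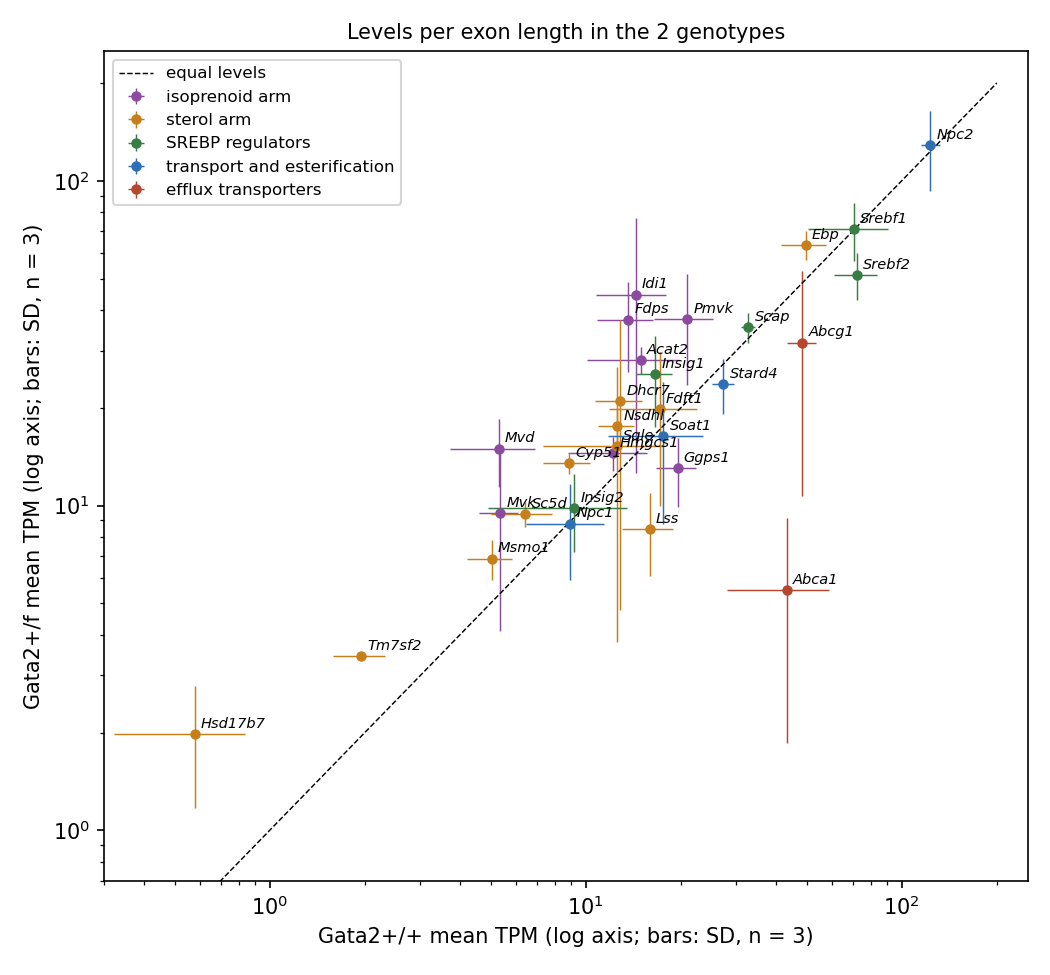
Mean TPM of the 30 genes in Gata2+/f (vertical) against Gata2+/+ (horizontal), both on log axes, with SD bars (n = 3). Points above the dashed line are higher in Gata2+/f; Abca1 (5.51 against 43.3 TPM) lies farthest below it, and Mvd, Fdps, Idi1 and Hsd17b7 lie well above.

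Neighbouring genes of the pathway, taken from 5 further lists, are read against 11.1% of all genes that were higher and 11.5% that were lower at an unadjusted p under 0.05. None passed edgeR's test after adjustment. In the list of other sterol synthesis genes and their controllers, 8 of 16 tested genes were positive (median 0.012), and 2 higher genes and 1 lower gene had p below 0.05 before adjustment. Its 3 genes with the smallest p were Pgrmc1, a haem-binding partner of sterol enzymes (99.6, 91.0 and 91.2 CPM in Gata2+/f, against 167, 128 and 297 CPM in Gata2+/+; −1.07), Erg28, a scaffold of the demethylation enzymes (33.6, 31.1 and 24.2 CPM in Gata2+/f, against 15.2, 19.2 and 16.6 CPM in Gata2+/+; 0.80), and Tmem97 (0.84). Fatty acid targets of SREBP1 had 9 of 14 positive (median 0.072), and 1 higher and 1 lower gene had such a p. Acss2, which makes acetyl-CoA from acetate, had a log2 fold change of −0.84 (SE 0.24). Those of the desaturases Fads2 and Scd2 were 2.29 (SE 0.90) and −0.87 (SE 0.56), and both overlapped between the groups.

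Genes that use isoprenoids had 10 of 13 positive values (median 0.46), and 2 higher genes and 0 lower genes had p below 0.05 before adjustment. Dhdds, a subunit of the enzyme that makes the dolichol chain, had 46.5, 44.3 and 43.9 CPM in Gata2+/f, against 29.2, 32.8 and 27.9 CPM in Gata2+/+ (0.58, SE 0.21; edgeR adjusted p = 0.170). Coq2, which prenylates the ring of ubiquinone, had 27.6, 40.1 and 28.8 CPM in Gata2+/f, against 19.9, 18.7 and 20.3 CPM in Gata2+/+ (0.71, SE 0.25). In these 2 genes, and in Fntb (a farnesyltransferase subunit, 0.81), every Gata2+/f library was above every Gata2+/+ library.

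Lipoprotein uptake and sterol transport genes had 12 of 20 positive (median 0.16), and 3 higher genes and 4 lower genes had such a p. Mylip, an LXR target whose product marks the LDL receptor for degradation, had 12.9, 27.7 and 22.6 CPM in Gata2+/f, against 109, 57.9 and 101 CPM in Gata2+/+ (−2.08, SE 0.37; edgeR adjusted p = 0.0955, DESeq2 adjusted p = 9.69e-05). All Gata2+/f libraries were below all Gata2+/+ libraries. Gramd1b, a carrier of plasma membrane cholesterol to the endoplasmic reticulum, was lower in Gata2+/f (−0.93, SE 0.21), and Scarb1, a receptor for high-density lipoprotein, was higher (84.7, 81.8 and 100.05 CPM in Gata2+/f, against 46.9, 53.4 and 48.4 CPM in Gata2+/+; 0.84, SE 0.20). In both, the groups did not overlap.

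In the list of LXR, oxysterol and efflux genes 8 of 13 were positive (median 1.21), and 6 higher genes and 3 lower genes had p below 0.05 before adjustment. Abca2, a lipid transporter of lysosomes, and Soat2, the second esterifying enzyme, were lower in each Gata2+/f library, and their log2 differences were −1.89 (SE 0.45) and −1.12 (SE 0.27). Cyp27a1, which makes an oxysterol that activates LXR, was higher (2.04, SE 0.65), at 5.08 to 10.7 CPM in Gata2+/f and 0.800 to 3.37 CPM in Gata2+/+. Apoe, Apoc2, Pltp and Lpcat3, also of this list, had positive log2 fold changes (1.21, 1.94, 1.54 and 0.50), unlike Abca1, Abcg1 and Mylip. Among these positive genes, picked after their values were seen, only Lpcat3 overlapped between the groups. The receptor genes, chosen after their values were seen, overlapped between the groups: Nr1h3 (LXR alpha) had 5.59, 1.97 and 6.70 CPM in Gata2+/f, against 0.580, 2.04 and 1.04 CPM in Gata2+/+, and Nr1h2 (LXR beta) had 65.4, 92.5 and 70.02 CPM in Gata2+/f, against 107, 94.6 and 87.1 CPM in Gata2+/+.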

How the data were processed

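Per the submitters' processing notes, build GRCm38 and the tools STAR 2.5.4a, RSEM 1.3.0 and CASAVA 1.8.2 were used. Libraries were poly-A selected and stranded, per the labels' protocols. The authors deposited RSEM expected counts (estimated counts per Ensembl gene, not normalized; 11.7% of values were not whole). The annotation release and strand setting are not given in the sources used here, so overlapping genes and close paralogs are uncertain. GENCODE M21 named 42462 of 43629 rows (97.3%). Counts were rounded, filtered by filterByExpr (minimum count 10; 15432 genes kept) and scaled by TMM in edgeR 4.0.16 (R 4.3.3). Gata2+/f was compared with Gata2+/+ by glmQLFit (legacy form) and glmQLFTest, two-sided, without covariates, and p-values were adjusted by Benjamini-Hochberg over the 15432 genes. DESeq2 1.42.0 and limma 3.58.1 were alternatives, beside other scalings, filters, a threshold of 0.1 and leaving out each library. TPM were computed from rounded counts over the union of exons. Chromosome deviations are medians over genes with mean log2 CPM of 3 or more, relative to each gene's median over the libraries. No 2 libraries were duplicates (chi-square per gene 240.4 or more). On simulated counts with known changes, the test called most genes with large changes and none or few with small ones. Simulated counts need not have the spread of these libraries. Here the test called no gene, not even the mast cell gene Cma1 (log2 fold change −5.39; edgeR adjusted p = 0.102). A gene not called here therefore need not have a small difference.

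The members and lists were chosen with earlier results of these data known. All 30 members are named. From each of 5 further lists the 3 tested genes with the smallest p are named. Apoe, Apoc2, Pltp, Lpcat3 and 2 receptor genes were picked after seeing their values. The labels do not state how the libraries of a group relate to animals or litters, so p-values measure the spread between these samples. Each of the 30 members was detected in each library.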

Additional observations from a re-analysis of the deposited data

How the results depend on the processing

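No paired analysis was possible because the groups share no replicate number. The count of genes called by edgeR's quasi-likelihood test, 0 as reported (3486 at an unadjusted p under 0.05), became 19 with no filter beyond 1 count, 32 with the newer form of the test, 9 with limma voom, 444 at a threshold of 0.1 and 1829 with DESeq2's Wald test; leaving out 1 library gave 0 to 66. The count of members called, 0 as reported, became 7 with DESeq2 and 2 (Abca1 and Fdps) at a threshold of 0.1, and stayed 0 with each library left out. The members' median log2 fold change of 0.21 ranged from 0.12 to 0.41 with 1 library left out. Upper quartile factors moved the median of all genes to 0.11 and that of the members to 0.34. The number of positive enzymes was 17 of 19 under each scaling and filter tried, 15 with limma voom and 14 to 17 with 1 library left out. Directions near 0 turned: Srebf1 was 0.0030 and Npc2 0.080 with upper quartile factors, and Fdft1 was −0.028 and Sqle −0.014 with limma voom. With 1 library left out, the log2 fold change ran from −0.17 to 0.53 for Fdft1, −0.59 to 0.55 for Sqle, −0.15 to 1.03 for Dhcr7, −0.044 to 0.53 for Hmgcs1, −0.14 to 0.44 for Insig2, −0.35 to 0.11 for Srebf1, −0.026 to 0.15 for Scap, −0.39 to 0.097 for Npc1, −0.22 to 0.23 for Npc2 and −0.54 to 0.18 for Soat1. The other 20 members kept their direction under all 13 alternatives. The cause of these differences was not tested, and 3 libraries per group limit the precision.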
